A study of Homo sapiens with 8 samples.

Results

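The 8 genes described here carry sterols and phospholipids out of cells or answer to the liver X receptors. They were chosen by name from a table of 11530 genes, with earlier results of these data known. Of the 8, 7 had a row in the table used here: APOE, APOC1, PLTP, ABCA1, NR1H2, NR1H3 and MYLIP. The transporter gene ABCG1 was not analysed here. All 7 passed the floor on low values, at least 4 libraries with a deposited log2 value of 0 or above, which 11257 genes passed in all.

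A macrophage or monocyte cannot break down the sterol ring, so surplus cholesterol must leave the cell. Oxysterols made from surplus cholesterol bind the liver X receptors, LXRα (NR1H3) and LXRβ (NR1H2), which sit on DNA with a retinoid X receptor partner. The genes they are known to switch on in macrophages include the cholesterol pumps ABCA1 and ABCG1, the acceptors apolipoprotein E and apolipoprotein C-I, the lipid transfer protein PLTP, and MYLIP (also called IDOL), which sends the LDL receptor for degradation.

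The cells were MonoMac 6, an established line derived from acute monocytic leukaemia. One group of 4 libraries came from cells treated for 24 h with 100 ng/mL of APRIL, the TNF-family ligand encoded by TNFSF13, in RPMI described as serum-free. The other 4 libraries were controls without APRIL. Whether the control medium held serum is not stated in the labels, both media held baseline cytokines that the series text does not name, so an effect of APRIL and one of serum cannot be told apart. Nothing says that the libraries came from separate cultures, so p-values measure only how far these libraries spread, and that spread may be technical. A library is named by its group and its place among that group's table columns, such as APRIL column 1.

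Whole reads could be recovered from the deposited values of 11075 genes, with 895819 reads in the shallowest library (APRIL column 3) and 5124460 in the deepest (APRIL column 2), 5.72 times as many. Of the 16 names on a list of monocytic markers 13 were tested, of which 8 were higher and 5 lower with APRIL. Their median change was +0.13, or -0.165 with trends in transcript length and GC content removed, and the part of these markers in the results below was not tested. Of the hepatocyte and adipocyte markers 1 of 11 was tested (FABP4), and of the lymphocyte and erythroid markers 2 of 10 (CD79A among them). In bulk RNA, fewer cells with a transcript and less of it per cell cannot be told apart. Each change below is a log2 difference, APRIL minus control, with limma's standard error, and none of the 11257 genes tested passed at an adjusted p under 0.05 (0%), while 1344 (11.9%) had an unadjusted p under 0.05.

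The liver X receptors bind a direct repeat of the unit AGGTCA with 4 bases of any kind, NNNN, between its 2 copies. RefSeq promoter windows (GRCh38.p14, 250 bases before to 50 after a transcription start) were found for 7 of the 8 genes, 13 windows in all, and were searched on both strands. The closest match lay at ABCA1, with 2 mismatches, a match that 2.34% of 35116 promoter windows reach. It starts 69 bases before the start site and reads along the strand opposite the gene. The best windows of APOC1 and PLTP had 3 mismatches, which 18.6% of windows reach, and the best of APOE, NR1H2, NR1H3 and MYLIP had 4, which 72.5% reach. These shares are per single window. PLTP had 2 windows, APOE 3 and NR1H3 4, and the best of several windows reaches a match more often. The 3 closest matches are shown to compare their letters, with the repeat units in capitals and the 4 bases between them in lower case.
ABCA1 repeat: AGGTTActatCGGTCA
APOC1 closest match: GGGTCAggtgGGGTCC
PLTP closest match: GGGGCAaagaAGGCCA
The whole ABCA1 window (chr9:104928106-104928405, minus strand) follows along the gene's own strand, with the repeat in capitals, because ABCA1 is the gene with the closest match and the only one of the 7 whose mean was lower with APRIL.
ABCA1 promoter: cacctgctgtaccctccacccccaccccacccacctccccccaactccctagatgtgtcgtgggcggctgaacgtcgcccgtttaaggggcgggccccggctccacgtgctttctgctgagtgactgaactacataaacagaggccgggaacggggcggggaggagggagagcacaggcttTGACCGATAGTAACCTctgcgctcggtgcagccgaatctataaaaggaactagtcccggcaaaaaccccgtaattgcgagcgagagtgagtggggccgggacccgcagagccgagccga
A match is a description of letters and not a measured binding site. Binding of the receptors was not measured in these libraries.

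Of the 7 genes, 6 had a higher mean with APRIL and 1, ABCA1, a lower one, where 49.3% of all tested genes had a higher mean. The changes ran from -0.43 for ABCA1 to +0.69 for APOE, with a median of +0.38 beside -0.0053 over all tested genes. Because the genes were chosen with earlier results of these data known, these contrasts with all tested genes are descriptions and not tests. None of the 7 passed limma's adjusted threshold (adjusted p 0.3999 to 0.545). At an unadjusted p under 0.05 there was 1 of 7, APOE, beside 11.9% of all tested genes in either direction, 6.25% higher and 5.69% lower. For APOE and APOC1 every APRIL value exceeded every control value, which held for 3.62% of all tested genes, and for none of the 7 did they lie wholly below, which held for 4.19% (7.81% in both directions together).

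**Figure D1:**
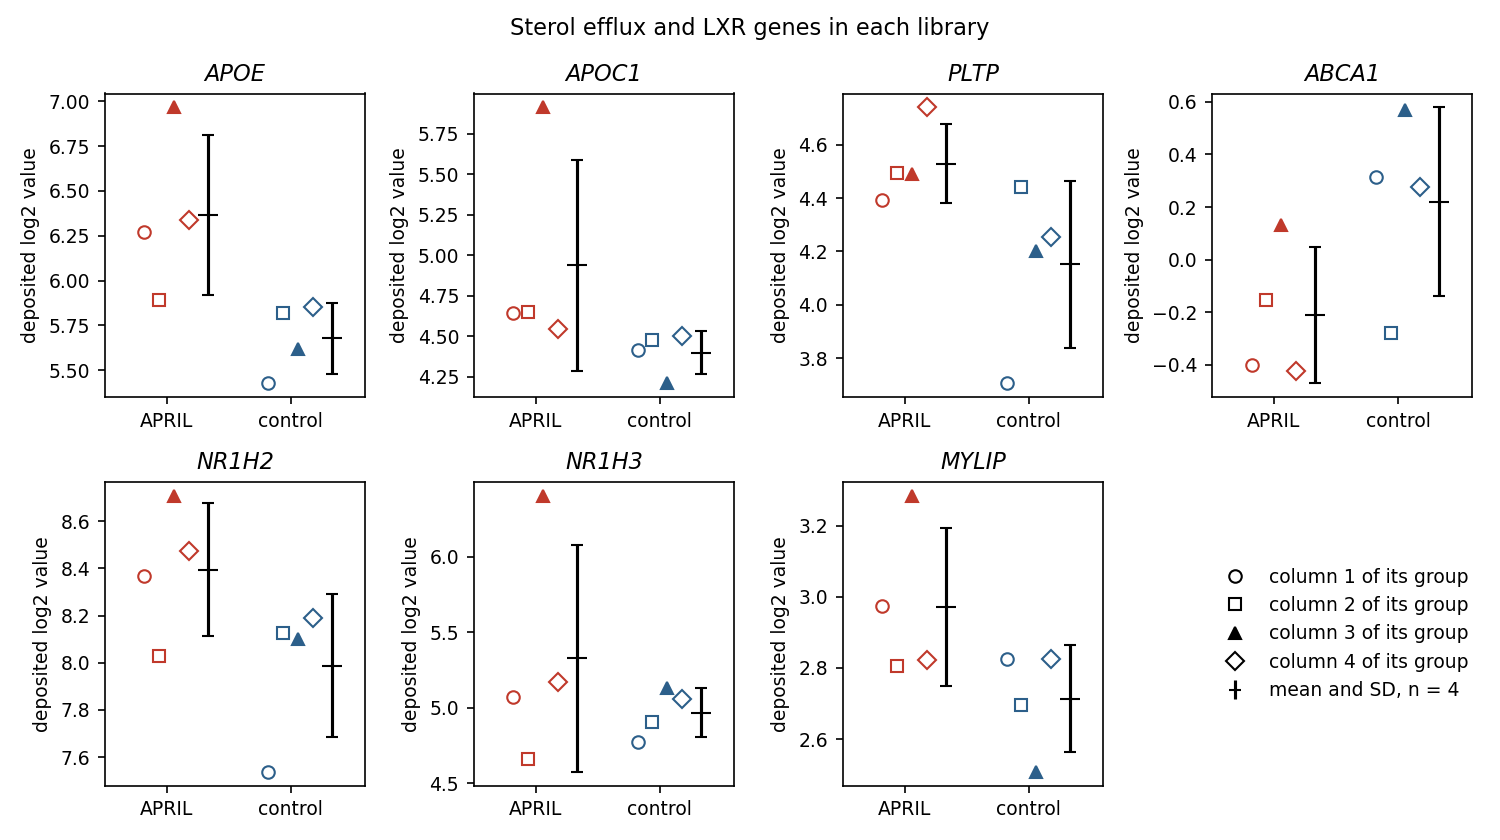
Deposited log2 value (y axis) of the 7 genes in each library, APRIL left of control, with a marker shape for each column of a group and a bar for the mean and SD of 4 libraries. The APRIL values of APOE and APOC1 all lie above the control values, APRIL column 3 (filled triangle) is the highest library for APOE, APOC1, NR1H2, NR1H3 and MYLIP, and ABCA1 is the gene whose mean is lower with APRIL.

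APOE, the apolipoprotein that macrophages secrete as an acceptor of cholesterol, showed the largest change of the 7. Its deposited log2 values were 6.27, 5.89, 6.97 and 6.33 in APRIL columns 1 to 4, against 5.43, 5.82, 5.62 and 5.86 in control columns 1 to 4. The recovered reads were 288, 417, 138 and 335 with APRIL and 116, 101, 120 and 225 in control. All 4 APRIL libraries stood above all 4 controls, although APRIL column 2 was only just above control column 4. The means were 6.36 ± 0.45 with APRIL and 5.68 ± 0.20 in control (SD, n = 4 each), a change of +0.69 ± 0.22 or 1.61-fold (limma adjusted p = 0.3999, 95% interval 0.20 to 1.17). Without APRIL column 3 the change was +0.49, and without control column 1 as well it was +0.40. APOE has a transcript of 68.5% GC, the highest of the 7, and with each library's trends with transcript length and GC content removed its change was +0.090 ± 0.10.

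APOC1 encodes a small apolipoprotein of HDL and lies just downstream of APOE on chromosome 19 (GRCh38 44914247 to 44919349, plus strand, against 44905754 to 44909393 for APOE). Its deposited log2 values were 4.64, 4.65, 5.91 and 4.54 in APRIL columns 1 to 4, against 4.42, 4.48, 4.21 and 4.50 in control columns 1 to 4. The groups did not overlap, but APRIL columns 1, 2 and 4 stood 0.14 to 0.25 above the control mean and APRIL column 3 stood 1.51 above it. That library held 37 APOC1 reads, with an exact 95% Poisson interval of 26.1 to 51.0 that covers counting error only, as all such intervals here do. The means were 4.94 ± 0.65 with APRIL and 4.40 ± 0.13 in control (SD, n = 4 each), and the change was +0.54 ± 0.28 (limma adjusted p = 0.400) over all libraries and +0.21 without APRIL column 3. In GENCODE the transcript AC011481.3 shares 532 exon bases with APOC1 on the same strand, and its reads cannot be told apart from those of APOC1.

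The neighbours APOE and APOC1 were also compared within each library. APOE minus APOC1 was 1.63, 1.24, 1.05 and 1.79 in APRIL columns 1 to 4, against 1.01, 1.34, 1.41 and 1.36 in control columns 1 to 4. The groups overlapped, and the difference of +0.15 gave an exact two-sided permutation p of 0.514 over 70 relabelings (adjusted p = 0.857 over the 2 pairs compared, smallest possible p = 0.0286). This does not show that the 2 genes act alike.

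PLTP, which moves phospholipids between lipoproteins and enlarges HDL, had deposited log2 values of 4.39, 4.50, 4.49 and 4.74 in APRIL columns 1 to 4, against 3.71, 4.44, 4.20 and 4.25 in control columns 1 to 4. The APRIL libraries lay close together and the spread was in control, where column 1 was low and column 2 was above APRIL column 1. The means were 4.53 ± 0.15 with APRIL and 4.15 ± 0.31 in control (SD, n = 4 each), and the change was +0.38 ± 0.18, or 1.30-fold (limma adjusted p = 0.3999), and +0.23 without control column 1. PLTP was the gene of the 7 in which APRIL column 4, not column 3, was the highest library. It had 78 to 501 recovered reads per library, and 200 of its exon bases overlap CTSA on the opposite strand, which an unstranded kit cannot separate. With the length and GC trends removed the change was +0.10.

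ABCA1, the pump that loads cholesterol onto lipid-poor apolipoproteins, went the other way. Its deposited log2 values were -0.40, -0.15, 0.13 and -0.42 in APRIL columns 1 to 4, against 0.32, -0.28, 0.57 and 0.28 in control columns 1 to 4. All APRIL libraries were below control columns 1, 3 and 4, and control column 2 fell among them. The reads behind these values were 10, 23, 4 and 11 with APRIL and 12, 5, 13 and 17 in control. The 4 reads in APRIL column 3 have an exact Poisson interval of 1.09 to 10.2, and the 5 in control column 2 one of 1.62 to 11.7. The means were -0.21 ± 0.26 with APRIL and 0.22 ± 0.36 in control (SD, n = 4 each), a change of -0.43 ± 0.25, or 0.741-fold (limma adjusted p = 0.414, 95% interval -0.98 to 0.12). When each library was left out it ran from -0.60 (without control column 2) to -0.32 (without control column 3). It was -0.61 with library quality weights, and -0.15 ± 0.29 with the length and GC trends removed. The ABCA1 transcript, at 10494 bases, is the longest of the 7.

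Set against APOE within each library, ABCA1 minus APOE was -6.67, -6.04, -6.84 and -6.76 in APRIL columns 1 to 4, against -5.11, -6.10, -5.05 and -5.58 in the controls in column order. APRIL columns 1, 3 and 4 were below every control, and APRIL column 2 fell between control columns 2 and 4. This pair was set side by side after the values were seen and was not tested.

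**Figure D2:**
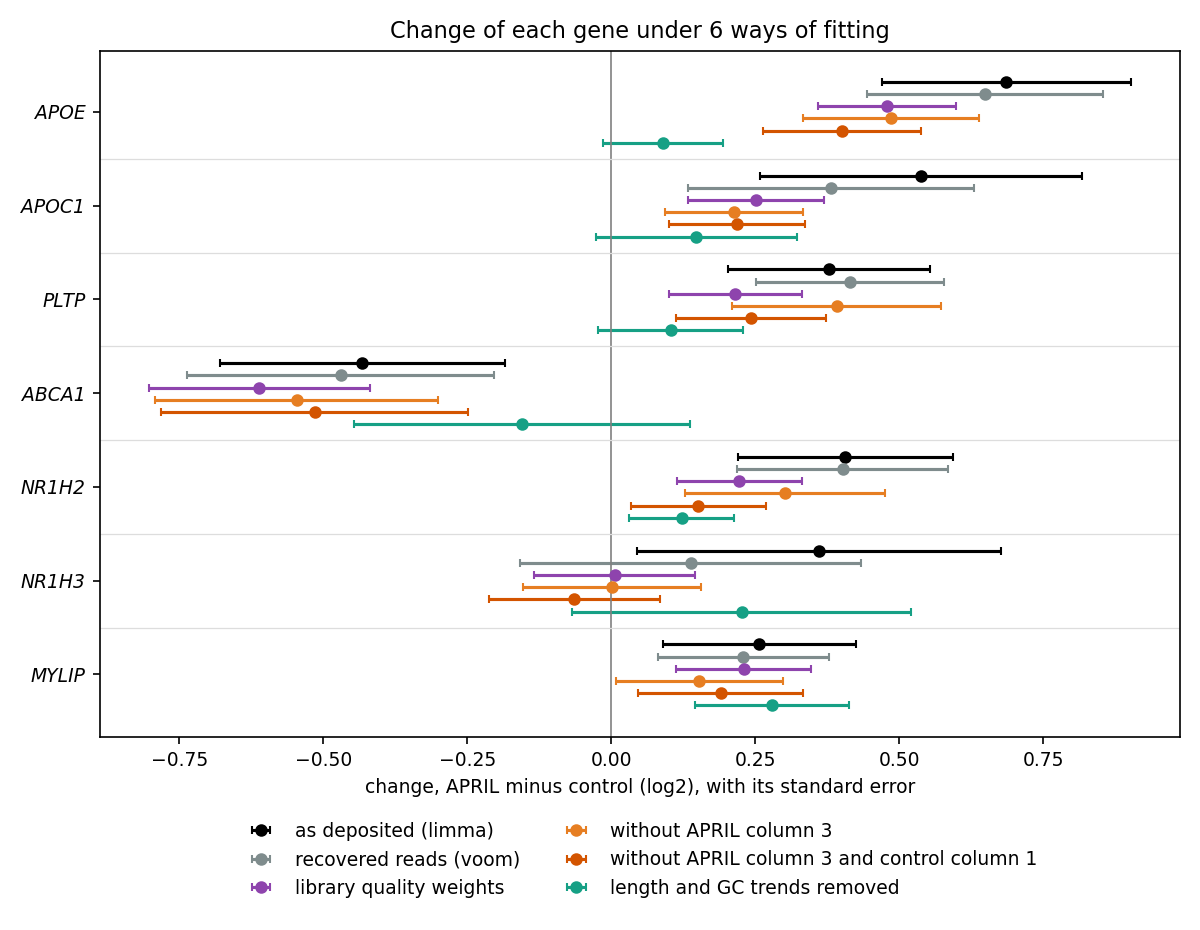
Change of each of the 7 genes (x axis, APRIL minus control, log2, with its standard error as a bar) under 6 ways of fitting, the first being limma on the deposited values. APOE moves from +0.69 to +0.090 when length and GC trends are removed, NR1H3 from +0.36 to +0.0013 without APRIL column 3, and ABCA1 stays below 0 in all 6.

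The receptor LXRβ, encoded by NR1H2 and present in most tissues, had deposited log2 values of 8.37, 8.03, 8.71 and 8.47 in APRIL columns 1 to 4, against 7.54, 8.13, 8.10 and 8.19 in control columns 1 to 4. APRIL columns 1, 3 and 4 stood above every control, APRIL column 2 fell among them, and control column 1 was far below the other libraries. The means were 8.39 ± 0.28 with APRIL and 7.99 ± 0.30 in control (SD, n = 4 each), a change of +0.41 ± 0.19 (limma adjusted p = 0.3999). It was +0.26 without control column 1, +0.15 without that library and APRIL column 3, and +0.12 with the length and GC trends removed.

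LXRα, encoded by NR1H3 and the form known for its abundance in liver and macrophages, had deposited log2 values of 5.07, 4.66, 6.41 and 5.17 in APRIL columns 1 to 4, against 4.77, 4.90, 5.13 and 5.06 in control columns 1 to 4. APRIL column 2 was below every control, APRIL columns 3 and 4 were above every control, and APRIL column 1 fell among them. That high value rested on 23 reads, with an exact Poisson interval of 14.6 to 34.5. The means were 5.33 ± 0.75 with APRIL and 4.97 ± 0.16 in control (SD, n = 4 each), a change of +0.36 ± 0.32 (limma adjusted p = 0.545), +0.0013 without APRIL column 3 and -0.064 without control column 1 as well. The exons of NR1H3 share 189 bases with ACP2 on the opposite strand.

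NR1H3 minus NR1H2, the balance of the receptors within a library, was -3.29, -3.37, -2.30 and -3.30 in APRIL columns 1 to 4, against -2.77, -3.22, -2.97 and -3.13 in control columns 1 to 4. APRIL columns 1, 2 and 4 were below every control and APRIL column 3 was above every control. The difference of -0.045 gave an exact two-sided permutation p of 0.857 (adjusted p = 0.857 over the 2 pairs). Without APRIL column 3, the library above every control, it was -0.30. Leaving out that library fixed the exact permutation p at 0.0571, the smallest that 3 against 4 libraries allow. That p is therefore no test of a shift. With the length and GC trends removed the difference was +0.10.

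MYLIP, the ubiquitin ligase that marks the LDL receptor for degradation, had deposited log2 values of 2.97, 2.80, 3.28 and 2.82 in APRIL columns 1 to 4, against 2.83, 2.70, 2.51 and 2.83 in control columns 1 to 4. APRIL columns 1 and 3 stood above every control and APRIL columns 2 and 4 fell just under control columns 1 and 4. The means were 2.97 ± 0.22 with APRIL and 2.71 ± 0.15 in control (SD, n = 4 each), a change of +0.26 ± 0.17 (limma adjusted p = 0.446), or +0.15 without APRIL column 3. It was the gene of the 7 with a higher mean whose change was no smaller with the length and GC trends removed, at +0.28 ± 0.13 (limma adjusted p = 0.569). Its transcript has 45.8% GC, below the 47.9% median of tested genes.

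The 6 other genes than ABCA1 mostly shared features of their transcripts that also went with the change over many genes. Their longest GENCODE transcripts were 689 to 2796 bases, all shorter than the median of 3636 bases over 10359 tested genes, and 5 of them, APOE, APOC1, PLTP, NR1H2 and NR1H3, were above that median GC content, at 55.4 to 68.5%. Over those 10359 genes longer transcripts had lower changes (Spearman's rho = -0.535) and GC-rich ones higher changes (rho = 0.507), across genes that are not independent replicates. By library, the trend with length was strongest and negative in APRIL column 3 (rho = -0.559). The trend with GC content was positive in APRIL column 4 (rho = 0.655) and negative in control column 1 (rho = -0.737). These trends did not follow the groups in every library. APRIL column 2 had a positive trend with length (rho = 0.41), as the controls did (0.153 to 0.416), and little with GC content (-0.0377). APRIL column 1 had little trend with length (rho = -0.0727). With both trends removed the changes of the 7 genes ran from -0.15 to +0.28, none of the 7 had an unadjusted p under 0.05, beside 8.06% of all genes in that fit. The groups of 1 of the 7, MYLIP, did not overlap, beside 6.35% of those genes.

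**Figure D3:**
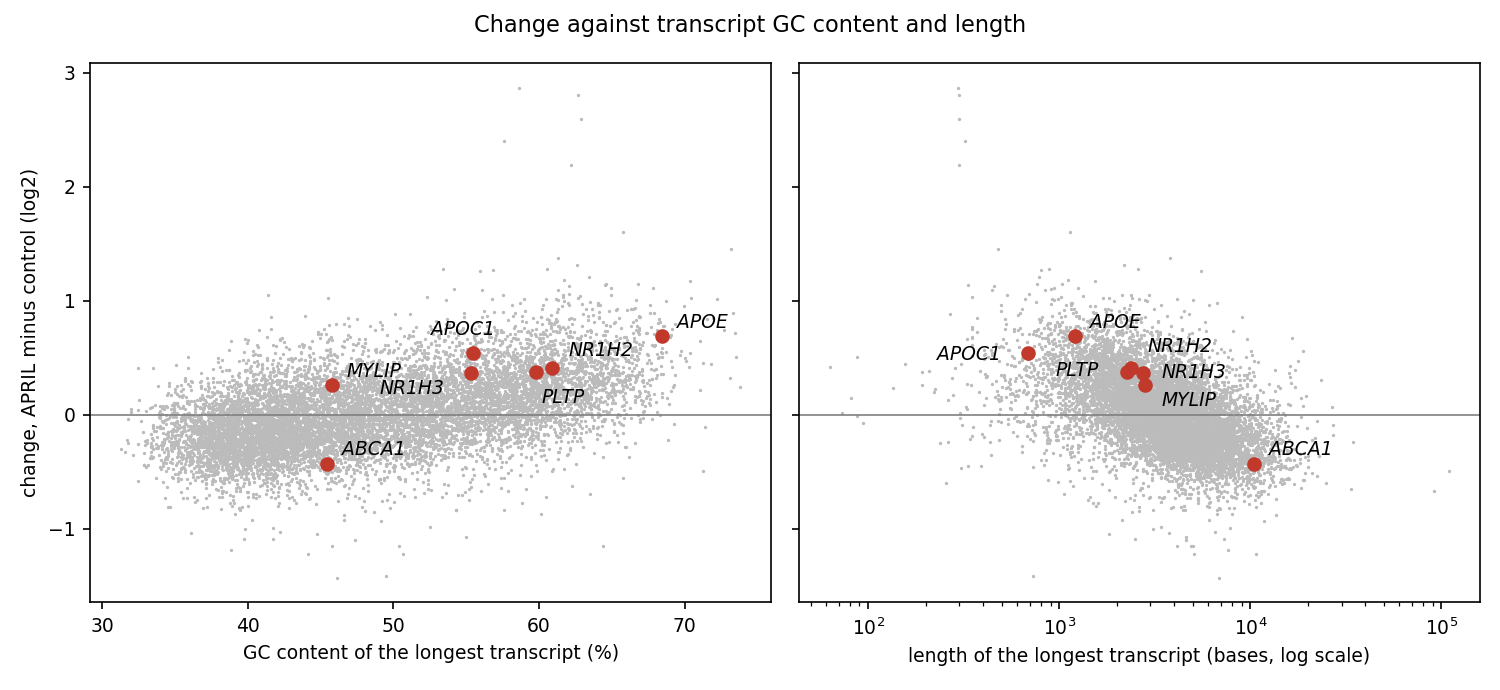
Change of 10359 genes (y axis, APRIL minus control, log2, grey points) against the GC content in percent (left) and the length in bases on a log axis (right) of the longest GENCODE transcript, with the 7 genes in red. APOE lies at the GC-rich end at 68.5% and ABCA1 at the long end at 10494 bases.

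The level of a gene could be set against another only per length, and the length to use was not certain, because the whole-number divisor recovered for each gene was not the transcript length. The divisor was 241 for NR1H3 and 290 for NR1H2, with transcripts of 2731 and 2380 bases, and 5490 for MYLIP, with a transcript of 2796 bases. In RPKM, computed from the recovered reads and the longest transcript, APOE had 93.3 ± 25.1 with APRIL and 58.1 ± 7.77 in control (SD, n = 4 each). On that scale NR1H2 followed at 57.2 ± 8.54 with APRIL and 44.4 ± 8.40 in control, then PLTP at 43.2 ± 5.49 and 34.4 ± 6.89. In control the ranges of neighbours in this order overlapped down to APOC1, and those of APOC1, MYLIP, NR1H3 and ABCA1 did not. APOC1 had 35.3 ± 16.4 with APRIL and 23.2 ± 2.09 in control, and MYLIP 21.3 ± 2.28 and 18.2 ± 1.90. NR1H3 had 5.29 ± 2.80 with APRIL and 3.83 ± 0.447 in control, and ABCA1 0.386 ± 0.0465 and 0.549 ± 0.138. Per the authors' divisor, NR1H2 was the highest and NR1H3 the third highest in control. ABCA1 was the lowest on both scales.

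Across the 8 libraries, with no test, APOE ran most alongside NR1H2 (Pearson's r = 0.915) and APOC1 (r = 0.864), and APOC1 alongside MYLIP (r = 0.906). ABCA1 had an r of -0.665 with PLTP and of -0.392 with APOE. The tested genes most like each member were GPX4, DYNLRB1 and CLTB for APOE (r = 0.993 to 0.997), RPIA, DNAJC15 and RER1 for APOC1 (0.989 to 0.992), and HEATR2, TAB1 and MBOAT7 for PLTP (0.972 to 0.982). They were ANP32A, EIF2S3 and KPNA2 for ABCA1 (0.932 to 0.942), POLR2E, LRFN4 and CD14 for NR1H2 (0.992 to 0.994), RPSAP54, HN1 and FEZ1 for NR1H3 (0.993 to 0.997), and PDE6B, CD59 and PPIAP29 for MYLIP (0.974 to 0.982). The number of tested genes that reached 0.9 differed widely between members, from 931 with APOE and 890 with NR1H3 to 108 with MYLIP and 14 with ABCA1. The 8 points share each library's depth and base-composition trend.

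Other genes of the pathway were taken from lists of general knowledge. None of their members passed limma's adjusted threshold. Over all tested genes 49.3% had a higher mean. Of 8 tested LXR target genes outside the 7, 3 were higher and 5 lower with APRIL (median -0.013). None of these 8 had an unadjusted p under 0.05, beside 11.9% of all tested genes. SCD, the fatty acid desaturase that LXR and SREBP1 are known to induce, had values of 9.89, 9.93, 9.45 and 9.79 with APRIL, all below the 10.05, 10.09, 9.95 and 9.97 of control, a change of -0.25 ± 0.13. Of all tested genes, 4.19% had APRIL values wholly below the controls. The SCD change stood at -0.15 when APRIL column 3 was left out and at -0.087 after the trends were removed. SREBF1, which encodes SREBP1, had a difference of +0.19 ± 0.13, and the LXR-induced phosphodiesterase SMPDL3A one of +0.26 ± 0.20, both with overlapping groups.

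On the deposited values the receptors' partners and co-regulators were the list with the lowest median. That list also holds PPARA, PPARD and PPARG, as partners of the retinoid X receptors. Of 17 tested, 14 had a negative change, where 49.3% of all tested genes had a higher mean. The median was -0.28, or -0.13 without APRIL column 3 and -0.13 with length and GC trends removed. With the trends removed the monocytic markers (-0.165) and the 2 lymphocyte and erythroid markers (-0.189) had lower medians. At an unadjusted p under 0.05 there were 3, all lower, beside 5.69% of all tested genes lower at that p. None passed the adjusted threshold. The corepressor NCOR1 had a difference of -0.45 ± 0.19, and the coactivators NCOA2 and NCOA3 had differences of -0.45 ± 0.18 and -0.39 ± 0.15 (limma adjusted p = 0.3999 for each). With the trends removed these were -0.17, -0.17 and -0.11, and without APRIL column 3 they were -0.27, -0.31 and -0.34.

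Among 4 oxysterol enzymes 1 had a positive change (median -0.036). That was CYP27A1, the sterol 27-hydroxylase, which gives an LXR ligand and stood at 1.03, 0.56, 0.96 and 1.42 with APRIL, against 0.60, -0.88, -0.19 and 1.04 in control. Its groups overlapped, with a change of +0.85 ± 0.39 (limma adjusted p = 0.3999). SQLE, an enzyme of sterol synthesis, had a difference of -0.068 ± 0.10, or -0.0071 without APRIL column 3.

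Of 9 lipoprotein receptor and uptake genes 7 had a negative change (median -0.24, or -0.036 with the trends removed), and the 3 with the smallest p were the sorting receptor SORT1 at -0.31 ± 0.14, LRP8 at -0.25 ± 0.14 and SORL1 at -0.50 ± 0.29. Without APRIL column 3 these were -0.20, -0.15 and -0.20, and the list's median was -0.11. Of 18 genes of intracellular cholesterol transport and storage 13 had a negative change (median -0.10). Lower at an unadjusted p under 0.05 was 1 of them, beside 5.69% of all tested genes. This was SOAT1, the enzyme that esterifies cholesterol for storage, at 8.05, 7.95, 7.98 and 7.94 with APRIL, against 8.51, 8.24, 8.23 and 8.21 in control. Its APRIL values lay wholly below the controls, which held for 4.19% of all tested genes. The SOAT1 change was -0.31 ± 0.11 (limma adjusted p = 0.3999). It stood at -0.31 when APRIL column 3 was left out and at -0.042 after the trends were removed. The sterol-binding protein OSBPL8 had a difference of -0.38 ± 0.18, and NPC1, which exports cholesterol from lysosomes, one of -0.32 ± 0.18. Without APRIL column 3, where NPC1 was far below the other APRIL libraries, the NPC1 value was -0.14. With the trends removed OSBPL8 was at -0.074 and NPC1 at -0.21.

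Of 12 genes on a list of other apolipoprotein and HDL genes 10 had a negative change (median -0.055). With the trends removed the median was -0.11, over 11 of the 12. The list goes beyond apolipoproteins of HDL and holds APOO, APOOL, APOA1BP, APOBR and LIPE, so its count and median do not describe HDL genes alone. The gene with the smallest p was APOA1BP, which encodes an apolipoprotein A-I binding protein. It was higher with a change of +0.52 ± 0.27, or +0.24 without APRIL column 3. APOL6 had a difference of -0.19 ± 0.11 and APOBR one of -0.28 ± 0.21, or -0.091 without APRIL column 3. With the trends removed APOL6 was at +0.13 and APOBR at -0.49. Of the other transporters of subfamilies A and G, 3 of 10 were tested, with ABCA3 at +0.26 ± 0.26, ABCA2 at -0.11 ± 0.28 and ABCA7 at +0.014 ± 0.17. Leaving out APRIL column 3 put these at +0.12, +0.20 and +0.14. Of 25 sterol synthesis genes under SREBP2, 13 were higher and 12 lower with APRIL (median +0.017). At an unadjusted p under 0.05 there were 2, both higher, beside 6.25% of all tested genes higher at that p. The 3 with the smallest p were the reductase TM7SF2 at +0.62 ± 0.22, HSD17B7 at +0.48 ± 0.20 and the phosphomevalonate kinase PMVK at +0.49 ± 0.24. Leaving out APRIL column 3 put them at +0.43, +0.33 and +0.24, and with the trends removed at +0.23, +0.57 and +0.099. Among these 3, only HSD17B7 had APRIL values wholly above the controls, which held for 3.62% of all tested genes.

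**Figure D4:**
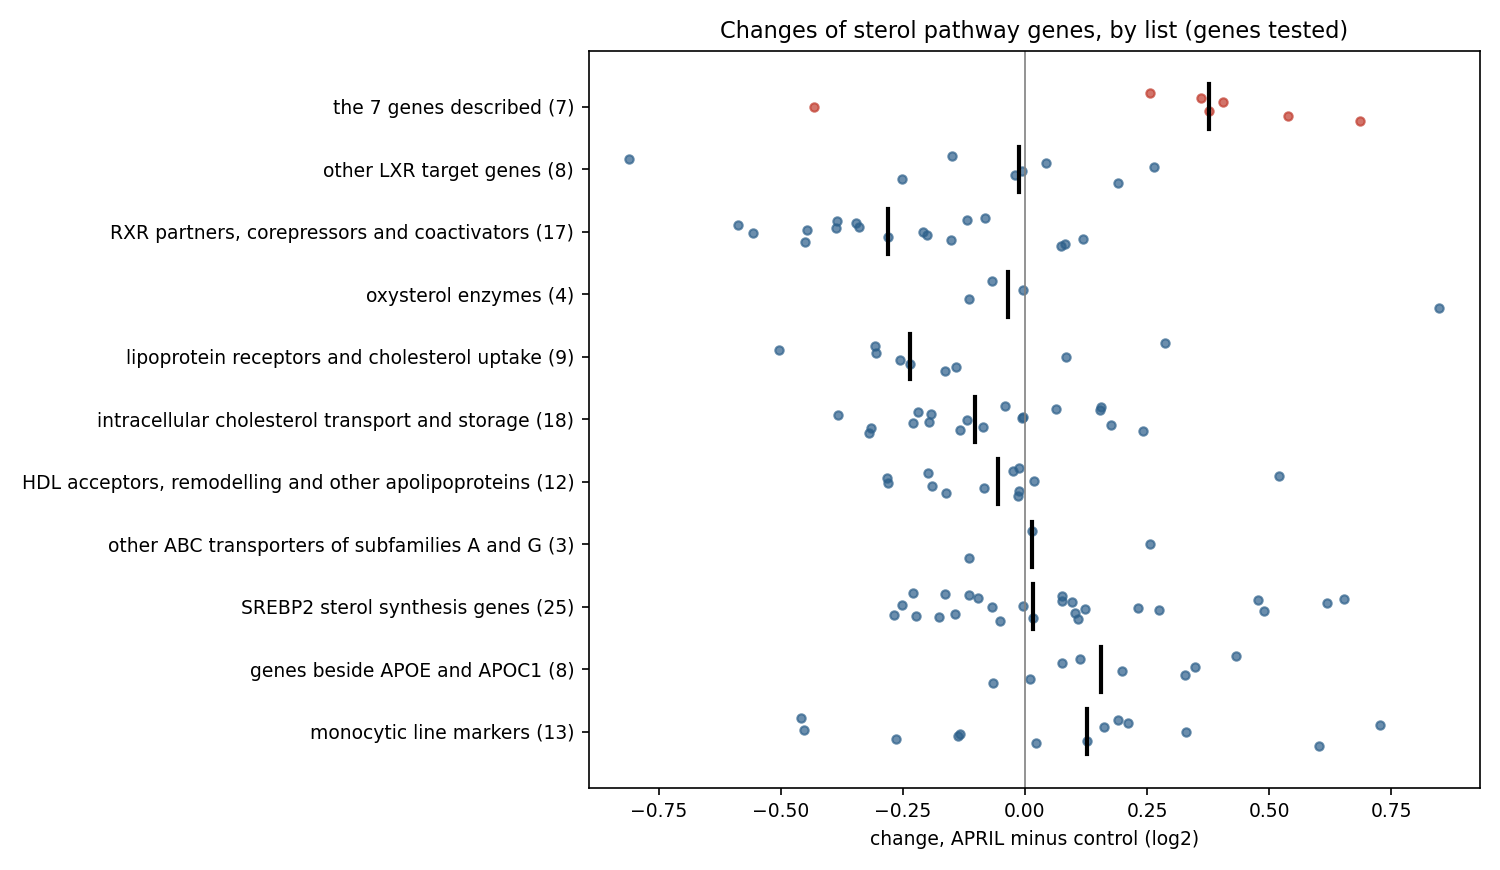
Change of each tested gene (x axis, APRIL minus control, log2) by list, with 1 point per gene, the number tested in brackets and a black bar at the list's median. The 7 genes have a median of +0.38 with ABCA1 apart at -0.43. The other LXR target genes have a median of -0.013, and the partners and co-regulators have a median of -0.28.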

How the data were processed

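RNA of 8 MonoMac 6 libraries was sequenced (TruSeq RNA v2, unstranded, per the labels' protocols). The authors deposited log2 values scaled by a TMM factor per library, per the file headers. A p-value, its log10, a linear fold, its sign and a signed score of APRIL against control were also deposited by the authors, per the file headers. The submitters' processing notes name TopHat2 2.0.13, bcl2fastq and build hg19. For the read counter, annotation and gene filter the method was not given in the sources used here. All positions and lengths come from GENCODE 29 or RefSeq on GRCh38, and no hg19 coordinate was used.

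The test was limma 3.58.1 (R 4.3.3) with intensity trend and robust empirical Bayes, group as the only term, two-sided, Benjamini-Hochberg over 11257 genes, threshold 0.05; the floor left out 273 genes. Whole reads were recovered for 96.1% of genes as log2 of reads plus 0.5 over a whole-number divisor (1 of 500 genes with moved constants), and entered voom as an alternative. Both steps were run on simulated data. For the read recovery these were built from reads already recovered, so that run cannot show that the recovered reads are right. Trends with transcript length and GC content were splines with 4 degrees of freedom each, over 10359 genes (92.0% of those tested). Permutation tests used scipy 1.17.1, tables pandas 2.3.3, and plots matplotlib 3.10.9 (Python 3.11.15).

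The members and lists were chosen with earlier results of these data known. Named genes were the members, the 3 tested genes of smallest p in each list, and the 3 genes most correlated with each member; 2 genes that this rule names are not reported here. The list of LXR targets also holds TNFAIP3, better known as an NF-kB target. The planned pair of ABCA1 and ABCG1 was not run, since ABCG1 was not analysed here.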

Additional observations from a re-analysis of the deposited data

Results flagged for a closer look

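Among 76 groups of 4 libraries (the 7 genes and 31 named pathway genes, in each group) 9 held a library far from its others, and chance flags about 1 in 20 groups. In 4 of the 9 that library was APRIL column 3, the shallowest. APOC1 stood at 5.91 in APRIL column 3, the other APRIL libraries at 4.54 to 4.65, and NR1H2 at 7.54 in control column 1, the other controls at 8.10 to 8.19. In APRIL column 3, NPC1 was low at 4.10, ABCA2 at 8.89 and ABCA7 at 5.83. In control column 1, CLPTM1 was low at 8.63 and SOAT1 high at 8.51. ABCA3 was high at 1.04 in control column 2 and CD79A high at 2.28 in APRIL column 4. The part of depth in these values was not tested.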

How the results depend on the processing

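Under 18 alternatives (17 for ABCA1, which did not reach the stricter floor) none of the 7 genes passed an adjusted p of 0.05 (smallest 0.153, for APOE with library quality weights), and NR1H3 was the one whose sign turned, to -0.064 without APRIL column 3 and control column 1. APOE had an unadjusted p under 0.05 in 17 of the 18, the exception being removal of length and GC trends. Of all genes, 4 passed with quality weights (library weights 0.117 for APRIL column 3 to 5.46 for APRIL column 1) and 0 elsewhere. Counts of all genes at an unadjusted p under 0.05 were 835 with the trends removed, 846 without both doubted libraries, and 507 (without control column 1) to 2247 (without APRIL column 2) when each library was left out. The count of the 7 genes at that p was 2 with quality weights (17% of all genes), 0 with the trends removed (8.06%), 3 with voom (10.8%) and 1 to 3 when each library was left out (3 without control column 2, beside 9.38% of all genes, and 2 without APRIL column 2 or control column 4, beside 20% and 10.8%). The groups of 1 gene did not overlap with the trends removed (6.35% of all genes), and those of 2 to 4 genes when each library was left out, beside 9.04% to 23.7% of all genes. The 4 were without control column 2, beside 13.3%. APOE minus APOC1 turned to -0.058 with the trends removed. NR1H3 minus NR1H2 turned to 0.10 with the trends removed and ran from -0.30 to 0.057 when each library was left out. Of 547 values of 31 other named genes 13 changed sign. With the trends removed APOL6 was at 0.13, ABCA7 at -0.11 and CD79A at -0.16. With quality weights ABCA2 was at 0.10. Without both doubted libraries SQLE was at 0.021 and ABCA2 at 0.096, and ABCA7 was at -0.0012 after quantile normalization. When each library was left out ABCA2 ran from -0.23 to 0.20 and ABCA7 from -0.097 to 0.14. The cause was not tested. No paired analysis was possible because the columns carry no replicate numbers. The fewest reads lay behind ABCA1 (4 to 23 per library), NR1H3 (13 to 44) and APOC1 (22 to 99).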

Other observations

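Of the genes around APOE and APOC1 on chromosome 19, 8 were tested, and 7 had a positive change (median +0.16, or -0.045 with the length and GC trends removed). None of them had an unadjusted p under 0.05, beside 11.9% of all tested genes. TOMM40, the mitochondrial import channel gene next to APOE, stood at 6.47, 6.27, 6.57 and 6.63 in APRIL columns 1 to 4, against 5.73, 6.33, 6.21 and 6.36 in control columns 1 to 4, with overlapping groups and a change of +0.33 ± 0.17. GEMIN7 had a difference of +0.43 ± 0.28, or +0.14 without APRIL column 3, and CLPTM1 one of +0.20 ± 0.14. Of the 13 monocytic markers tested, 8 were higher and 5 lower with APRIL, with a median of +0.13 that was -0.036 without APRIL column 3 and control column 1 and -0.165 with the trends removed. The 3 with the smallest p were ELANE at +0.73 ± 0.25, CD14 at +0.60 ± 0.30 and CD163 at -0.45 ± 0.23, none past limma's adjusted threshold (adjusted p = 0.3999, 0.400 and 0.400). Without APRIL column 3 they were at +0.50, +0.44 and -0.22, and with the trends removed at +0.14, +0.32 and -0.26. ELANE alone of the 13 had an unadjusted limma p under 0.05, beside 11.9% of all tested genes. Its APRIL values lay wholly above the controls, which held for 3.62% of all tested genes. The lymphocyte marker CD79A also had APRIL values wholly above the controls, with a difference of +0.26 ± 0.17, or -0.16 with the trends removed. FABP4 had a difference of +0.32 ± 0.35, or +0.049 without APRIL column 3.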
